A study of Mus musculus with 29 samples.

Results

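H3K27me3, the trimethylated form of lysine 27 of histone H3, was mapped by ChIP-seq in the embryonic mouse cortex, and 677 of its 22220 regions spanned 10 kb or more. These wide domains were chosen by the deposited peaks themselves. Peaks of the 8 H3K27me3 libraries that overlapped by 1 bp or more were joined, regions found in 2 or more libraries were kept, and those of 10000 bp or longer were taken, with no regard to group. The domains made up 3.05% of the regions and 25.4% of their bases, 13.6 Mb in all. Their length and their peak values are therefore a description, while their gene content, base composition and RNA levels took no part in the choice.

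H3K27me3 is written by Polycomb repressive complex 2, and Polycomb repressive complex 1 binds it. It is known for covering genes that a cell type keeps silent, and in embryonic tissues its broadest blocks lie over genes for transcription factors and signals that set body and brain regions. BAF (mSWI/SNF) complexes remodel nucleosomes with energy from ATP and are known as opponents of Polycomb. BAF155 and BAF170, encoded by Smarcc1 and Smarcc2, are scaffold subunits of these complexes.

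All embryos were C57BL/6J mice at E17.5. The mutants (dcKO) had floxed Smarcc1 and Smarcc2 deleted by Cre under the human GFAP promoter, which is active in radial glia of the pallium, so cells outside that lineage kept both genes. The deposited labels give the dcKO genotype to every H3K27me3 and untreated RNA library, and the letters C, K and M in the titles part controls from mutants. The study's methods describe the controls as Cre-carrying littermates with 1 floxed copy of each gene. H3K27me3 was profiled in 4 control (C) and 4 mutant (K) libraries, each group set against 1 pooled input of its own. The catalogue number beside the antibody in the labels is one generally listed for another histone mark, so the identity of the mark rests on its name in the labels. RNA-seq covered 4 control (C) and 3 mutant (M, numbered 2 to 4) pallium samples. A second RNA table held 4 WT and 4 dcKO samples with vehicle and 4 dcKO samples with a Wnt inhibitor, where pregnant females had been given vehicle or ICG-001, an inhibitor of Wnt/β-catenin signaling.

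Several libraries stood apart from their groups. After removal of duplicates, 4 H3K27me3 libraries kept between 32.8% and 66.5% of their tags (C2, C4, K3 and K4) and the other 4 kept between 12.3% and 18.0% (C1, C3, K1 and K2), and both groups held 2 of each kind. Among the RNA libraries, Smarcc1 stood at 50.1% to 52.6% of the control mean in 6 of 11 mutants. The library labelled dcKO replicate 2 held Smarcc1 at 94.9% and Smarcc2 at 97.7% of the control mean. The library labelled dcKO vehicle replicate 2 held them at 91.8% and 95.2%. The libraries labelled Wnt inhibitor replicate 1 and 2 held Smarcc1 at 78.9% and 94.9%, and replicate 4 at 65.6%. Smarcc2 stood at 86.3%, 95.3% and 80.6% in inhibitor replicates 1, 2 and 4. Counts of genes called are given below with and without the 4 libraries at over 75% of control for both genes, and for single genes the text says which libraries were used. Leaving those 4 libraries out was decided after the counts were seen. The gene totals per RNA library ran from 11946658 to 28391046 in both RNA tables together.

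The promoters of 7 domain genes are printed here because they span what the domains hold: silent Hox genes, homeobox and POU genes whose RNA differed in the mutants, and genes of cortical neurons and their progenitors that were transcribed in spite of the domain. Each runs from 250 bases before to 50 bases after the start in RefSeq for GRCm38.p6, 5′ to 3′ on the strand of the gene, and every CpG is in capitals. Hoxb4 lies at chr11:96318017-96318316 on the plus strand and holds 14 CpG, and Hoxd13 at chr2:74667975-74668274 on the plus strand holds 37. Shox2 lies at chr3:66981722-66982021 on the minus strand with 11 CpG, and Pou4f1 at chr14:104467950-104468249 on the minus strand with 57, more than 99.85% of the promoters in that table. Neurod2 lies at chr11:98329596-98329895 on the minus strand with 16 CpG, and Eomes at chr9:118477939-118478238 on the plus strand with 10. Hmx2, at chr7:131548507-131548806 on the plus strand, has 2 CpG, the fewest among the listed domain genes that were looked at. Those had a RefSeq start within 50 bases of the annotated one, and only 359 of the 520 domain genes had a RefSeq promoter at all.
Hoxb4: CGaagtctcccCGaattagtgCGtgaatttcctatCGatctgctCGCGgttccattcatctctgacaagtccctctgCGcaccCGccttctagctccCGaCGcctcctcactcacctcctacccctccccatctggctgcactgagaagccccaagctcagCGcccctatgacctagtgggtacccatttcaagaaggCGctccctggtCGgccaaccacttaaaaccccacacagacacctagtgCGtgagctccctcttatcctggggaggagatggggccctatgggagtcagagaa
Hoxd13: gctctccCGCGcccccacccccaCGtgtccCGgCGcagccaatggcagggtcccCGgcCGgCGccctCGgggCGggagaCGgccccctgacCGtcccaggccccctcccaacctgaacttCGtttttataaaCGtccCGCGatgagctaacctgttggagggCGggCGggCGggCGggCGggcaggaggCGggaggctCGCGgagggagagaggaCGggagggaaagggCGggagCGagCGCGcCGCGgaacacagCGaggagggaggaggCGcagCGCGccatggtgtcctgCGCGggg
Shox2: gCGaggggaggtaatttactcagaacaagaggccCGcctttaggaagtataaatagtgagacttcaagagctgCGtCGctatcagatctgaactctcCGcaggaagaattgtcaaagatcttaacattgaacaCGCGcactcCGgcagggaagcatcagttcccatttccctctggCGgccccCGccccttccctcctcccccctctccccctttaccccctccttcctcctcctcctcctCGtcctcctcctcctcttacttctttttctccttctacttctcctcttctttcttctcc
Pou4f1: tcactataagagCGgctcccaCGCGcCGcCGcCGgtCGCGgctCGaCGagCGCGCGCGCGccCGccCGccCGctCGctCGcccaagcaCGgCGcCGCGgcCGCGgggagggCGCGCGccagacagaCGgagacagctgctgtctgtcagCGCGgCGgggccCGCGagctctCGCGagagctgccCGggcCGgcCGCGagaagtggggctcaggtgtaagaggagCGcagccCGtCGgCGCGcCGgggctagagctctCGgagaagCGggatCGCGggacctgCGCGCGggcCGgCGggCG
Neurod2: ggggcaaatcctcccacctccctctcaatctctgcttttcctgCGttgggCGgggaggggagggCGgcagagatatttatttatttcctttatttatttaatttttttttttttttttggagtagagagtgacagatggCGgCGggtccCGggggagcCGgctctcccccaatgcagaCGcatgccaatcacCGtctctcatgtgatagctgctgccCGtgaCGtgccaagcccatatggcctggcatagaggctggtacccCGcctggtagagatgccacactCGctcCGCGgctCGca
Eomes: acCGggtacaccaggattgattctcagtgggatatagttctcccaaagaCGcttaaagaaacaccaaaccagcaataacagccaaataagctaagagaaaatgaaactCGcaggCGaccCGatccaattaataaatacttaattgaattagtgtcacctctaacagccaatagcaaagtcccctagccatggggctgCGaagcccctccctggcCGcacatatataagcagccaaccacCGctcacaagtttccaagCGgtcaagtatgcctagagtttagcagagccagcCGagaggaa
Hmx2: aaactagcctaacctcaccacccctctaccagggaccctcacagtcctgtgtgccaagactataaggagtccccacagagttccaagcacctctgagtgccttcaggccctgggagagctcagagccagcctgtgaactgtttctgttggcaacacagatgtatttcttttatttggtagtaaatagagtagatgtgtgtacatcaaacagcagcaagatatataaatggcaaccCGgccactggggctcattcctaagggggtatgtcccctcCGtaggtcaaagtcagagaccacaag

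A larger share of the domains than of the shorter regions held a gene start. A protein-coding start lay in 402 of the 677 domains (59.4%), against 15.2% of the 21543 shorter regions. A longer region has more room for a start, so these shares are not a like comparison. The domains held 25.4% of the region bases, and per base they held fewer protein-coding starts than the shorter regions. A further 122 domains (18.0%) lay over a gene body without its start, and 153 (22.6%) touched no protein-coding gene. The 402 domains held 520 protein-coding starts, with 1 start in 343 of them and at most 13 in 1 domain. In windows of 250 bases before to 50 bases after the annotated start, the 520 domain genes had a median of 17 CpG, and 75% of them had at least 10. The share was 71.8% for genes that start in a shorter region, 49.4% for genes in no region and 53.4% for all protein-coding genes. Starts in H3K27me3 regions of either length were thus richer in CpG than starts outside them. Over their whole length the domains were modest in CpG, with a median observed over expected ratio of 0.336 against 0.295 in shorter regions, and they held fewer soft-masked repeats (median 17.1% of bases against 30.8%).

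The domains ran from just over the limit to 184.1 kb, with a median of 15.9 kb and quartiles of 12.2 and 23.2 kb, while the shorter regions had a median of 1.21 kb. The lengths fell off smoothly across the limit. The 3 domains just inside it measured 10018, 10026 and 10037 bp, with a median fold enrichment over libraries of 2.17, 6.18 and 5.87, and the 3 regions just outside measured 9970, 9979 and 9979 bp, with 4.48, 7.10 and 5.11. There were 220 domains over 20 kb, 14 over 50 kb and 5 over 100 kb.

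**Figure D1:**
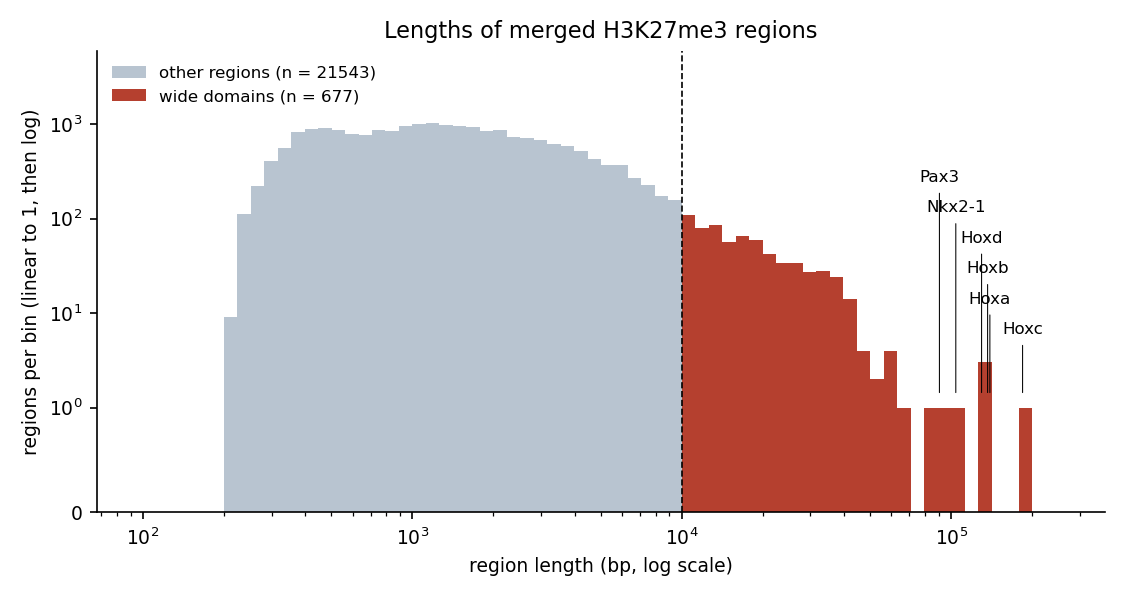
Histogram of the lengths of all 22220 H3K27me3 regions in bp on a log axis, with the number of regions per bin on an axis that is linear up to 1 and logarithmic above. The wide domains (n = 677, red) continue the slope of the 21543 shorter regions (grey) past the dashed limit at 10000 bp, and the longest are 4 Hox clusters and the Nkx2-1 and Pax3 domains.

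The 10 longest domains were led by the 4 Hox clusters, whose homeodomain factors pattern the hindbrain, spinal cord and limbs. The Hoxc domain spanned 184.1 kb with 9 protein-coding starts, Hoxa 139.2 kb with 13, Hoxb1 to Hoxb9 136.5 kb with 9 and Hoxd with Evx2 129.7 kb with 11. Hoxb13 had a domain of its own of 60.2 kb. Next came Nkx2-1 (104.0 kb), a homeodomain factor of the ventral telencephalon, thyroid and lung, and Pax3 (90.4 kb), a paired box factor of the dorsal neural tube and neural crest. Zic4 and Zic1, zinc-finger genes of the dorsal brain whose starts lie close together on opposite strands, shared 63.6 kb, and Dmbx1, a homeobox gene of the midbrain, lay in 62.8 kb. The remaining one, 87.6 kb on chromosome 8, held no protein-coding start and consisted of repeats over 79.5% of its bases.

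The highest fold enrichment of a peak over input in the Hoxc domain was 16.3, 6.80, 12.6 and 6.39 in control libraries 1 to 4, and 17.1, 16.6, 6.99 and 9.83 in mutant libraries 1 to 4. Hoxa read 13.5, 7.37, 12.7 and 6.89 in C1 to C4, and 16.7, 22.7, 7.30 and 12.03 in K1 to K4. In both domains the low values belonged to libraries 2 and 4 of the controls and library 3 of the mutants, and the groups overlapped. These 3 libraries covered almost the whole Hoxc domain with peaks (98.5%, 98.4% and 98.5%), while C1 covered 43.3% and C3 20.4%. The authors' caller gave each broad peak the mean enrichment over its span, so the value of a single long peak and that of a short one do not measure the same span.

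This difference between libraries ran through all domains. The median share of a domain under peaks was 87.6%, 81.9%, 77.02% and 86.8% in C2, C4, K3 and K4, and 23.98%, 6.37%, 23.7% and 8.58% in C1, C3, K1 and K2. Peaks of 10 kb or more were found in 406, 367, 345 and 387 domains in the first 4 libraries, and in 6 to 19 domains in the others. The wide call thus rested on the libraries with over 30% of tags kept, since 27 domains had a 10 kb peak in any library under 30%. K4 alone supplied such a peak for 101 domains, and 114 domains were built only of shorter peaks.

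**Figure D2:**
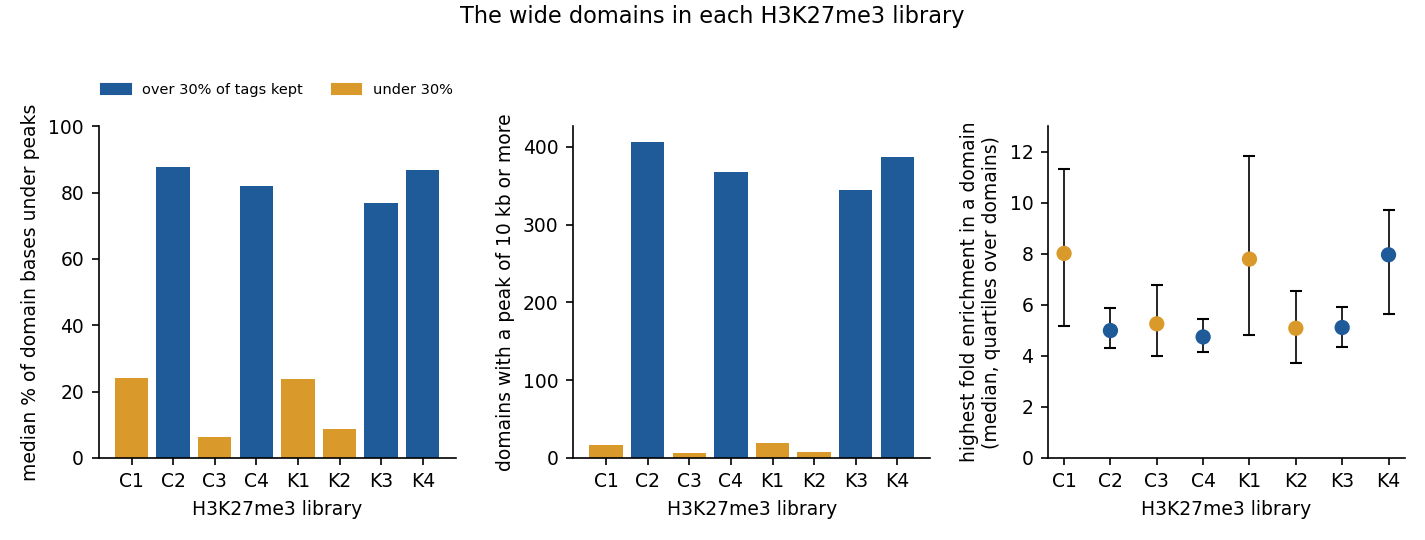
For each of the 8 H3K27me3 libraries, bars give the median percent of domain bases under peaks (left) and the number of domains with a peak of 10 kb or more (middle), and points give the median of the highest fold enrichment with its quartiles over the 677 domains (right). Libraries with over 30% of tags kept (blue) cover 77.02% to 87.6% of a domain, those under 30% (orange) 6.37% to 23.98%, while the medians of the fold enrichment run from 4.74 to 8.02 without that order.

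Presence of a peak was far more even than its width. A peak lay in all 8 libraries in 462 domains (68.2%), against 2.71% of the shorter regions, of which 46.4% had one in only 2 libraries. A peak of any size anywhere in a region counts, and a longer region has more room for one. These shares are therefore not a like comparison. A peak was present in 541 of the 677 domains in the library with the fewest (K2) and in all 677 in K4. The highest fold enrichment had a median of 8.02, 4.99, 5.26 and 4.74 over the domains in C1 to C4, and 7.79, 5.08, 5.11 and 7.96 in K1 to K4.

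Most listed genes of developmental patterning started in a wide domain, while 160 of the 677 domains (23.6%) held one. Of 294 listed transcription factor and signaling genes, 201 (68.4%) started in a wide domain, against 520 of 21951 (2.37%) of all protein-coding genes. All 39 Hox genes did so, in 5 domains. Among the other homeobox families the count was 11 of 12 LIM genes, 12 of 14 NK genes, 5 of 6 Dlx genes, 10 of 12 genes of the Irx and sine oculis families and 42 of 52 others. Of the paired box genes, 8 of 9 started in a domain, and Pax4, a gene of pancreatic islets, started in no region. Of 12 LIM genes the one outside was Lhx2, a selector of cortical identity, which started in a shorter region.

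Other families were covered in part. Among 16 T-box genes 10 started in a domain, among 6 GATA genes 4, among 29 forkhead genes 17, among 16 Sox genes 8 and among 33 bHLH lineage genes 16. The forkhead genes in no region included Foxp1, a factor of the developing cortex. Among secreted signals, 11 of 19 Wnt ligands started in a wide domain and the other 8 in shorter regions. The counts were 4 of 16 for BMP, GDF and antagonist genes (Bmp4, Bmp7, Gdf6 and Gdf7) and 4 of 15 for FGF and hedgehog ligands (Fgf8, Fgf9, Shh and Ihh).

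**Figure D3:**
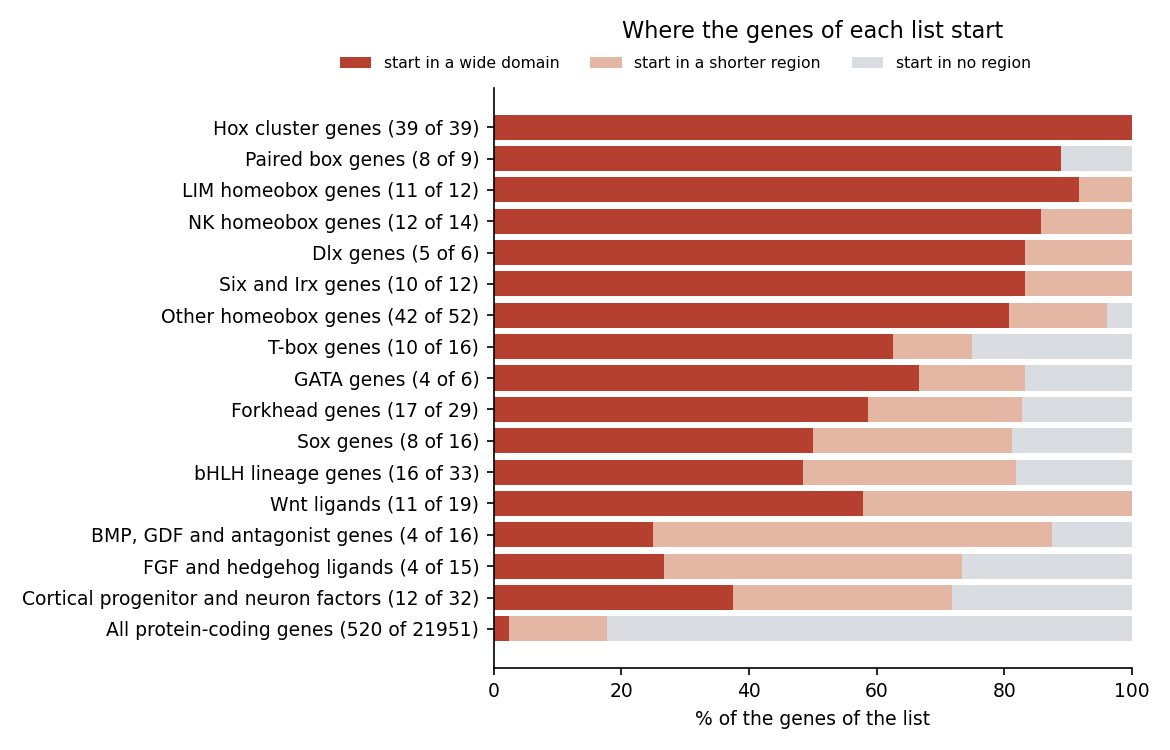
Percent of the genes of each list that start in a wide domain (red), in a shorter H3K27me3 region (pink) or in no region (grey), with the number in wide domains of the number annotated beside each list. The Hox bar is red throughout (39 of 39), the homeobox families reach 80.8% or more, the ligand lists range from 25% to 57.9%, and 2.37% of all protein-coding genes start in a wide domain.

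Domains over listed genes were also longer. The 165 domains that held the start of a listed gene, cortical factors included, had a median of 23.98 kb, against 14.6 kb for the other domains, and 146 of them had a peak in all 8 libraries. They made up 24.4% of all domains, 99 of the 220 over 20 kb (45%) and 11 of the 14 over 50 kb. The medians by family ran from 12.7 kb for the 8 Sox domains to 35.2 kb for the 8 Pax domains and 136.5 kb for the 5 Hox domains. These lists were drawn up with earlier results of these data known, so the shares describe the domains and support nothing further.

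Of the 520 domain genes, 507 were listed in the untreated RNA table. Their median level in the 4 control libraries was 0.0884 CPM (a gene's count scaled to a common library total) per kb of exon, against 0.981 for genes that start in shorter regions and 2.40 for genes in no region. A level under 0.1 was found for 258 of the 507 (50.9%), a level of at least 1 for 138, and no count in any control library for 98. At the other end, 33 domain genes (6.51%) reached 10, against 12.6% of the genes in shorter regions and 27.8% of those in no region. In a dissected pallium, a low level from few cells of a type and a low level per cell cannot be told apart.

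**Figure D4:**
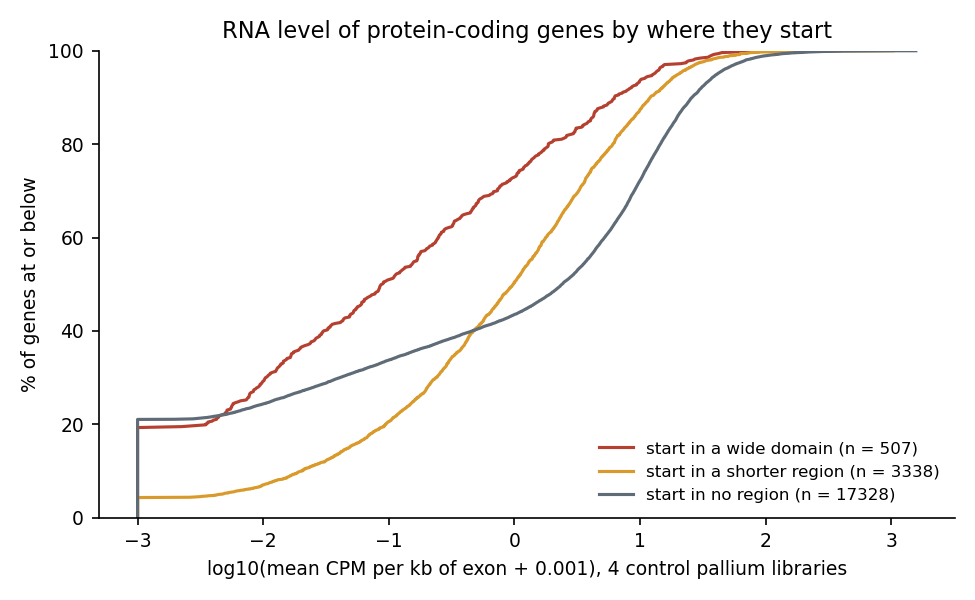
Cumulative percent of protein-coding genes at or below a given RNA level, drawn as log10 of the mean CPM per kb of exon plus 0.001 over the 4 control pallium libraries. The curve of the 507 genes that start in wide domains (red) lies above that of the genes in shorter regions (orange) until both near 100%, and above that of the genes in no region (grey) except at the lowest levels, with 50.9% of domain genes under a level of 0.1.

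The Hox genes were close to silent in every library. All 38 that were listed in the untreated table had a control level under 0.1 per kb and none was tested for a difference. The counts of all Hox genes summed to 5, 4, 3 and 1 in control libraries 1 to 4. In the mutants they summed to 4 in replicate 2, 19 in replicate 3 and 21 in replicate 4. Replicate 2 had the lowest gene total of that table (11946658). Scaled to the library total, the sums were 0.045 to 0.210 CPM in the controls, and 0.334, 0.724 and 0.845 CPM in mutant replicates 2, 3 and 4. In the treated table the sums were 2, 4, 0 and 8 in WT vehicle, 24, 4, 23 and 25 in dcKO vehicle, and 4, 3, 9 and 14 with the Wnt inhibitor. Replicate 2 was thus the lowest of the mutants in the untreated table and of dcKO vehicle and inhibitor in the treated one. Hoxd8 gave 3 of the reads in mutant replicate 3 and 11 in replicate 4. These are single reads, and no difference was tested.

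A smaller set of domain genes was transcribed at high level. Among the 10 highest per kb in the controls were Neurod2 (118), Lmo3 (44.9), 1110004F10Rik (42.3), Fezf2 (38.7), Dlx1 (37.1), Sox2 (34.9), Grik3 (30.1) and Eomes (27.4). Neurod2 and Fezf2 encode factors of excitatory cortical neurons, Eomes marks intermediate progenitors, Sox2 neural stem cells and Dlx1 interneurons born in the ventral forebrain. All 12 domain genes on the list of cortical factors reached at least 1, with a median of 18.4. Domains of highly transcribed genes had lower and less covered peaks. The median highest fold enrichment was 6.41 over the domains of genes under 0.1 and 5.14 over those of genes at 10 or more, and the median covered share in C4 was 90.2% and 75.4%. The median length over the same classes was 19.4 and 15.4 kb.

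The Neurod2 domain shows how such a domain looked in each library. It spanned 18.0 kb, with a highest fold enrichment of 7.17, 4.08, 10.3 and 3.78 in C1 to C4 and of 10.04, 9.28, 4.23 and 5.90 in K1 to K4. The Fezf2 domain of 14.6 kb read 3.95, 4.08, 1 and 4.21 in C1 to C4, and 4.32, 1, 4.25 and 5.71 in K1 to K4, where 1 stands for no peak. C3 and K2 were thus without a peak over a gene at 117.9 ± 15.1 CPM (SD, n = 4) in control RNA.

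The main comparison of the study on this mark is mutant against control. No domain passed limma on the log2 highest fold enrichment in K against C (adjusted p under 0.05 with Benjamini-Hochberg adjustment over 22220 regions), and 0% of all regions did. At an unadjusted p under 0.05 there was 1 domain among 49 regions. The smallest limma adjusted p over the domains was 0.999995. The K minus C difference had a median of 0.17 on the log2 scale over the domains and 0.05 over all regions, and it ranged from -1.15 to 1.45 over the domains, with a median SE of 0.65. K lay above C in 536 domains (79.2%), against 59.8% of all regions.

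The upward lean of the domains depended on which libraries and which value were read. In the 4 libraries with over 30% of tags kept the median difference was 0.34 and K lay above C in 94.8% of domains. In the 4 libraries under 30% it was -0.00, with K above C in 46.5%. Without K4 the median was 0.08, and without C1 it was 0.33. On the height of the pileup relative to the median of each library it was 0.01, with K above C in 51.4%. Each group was divided by an input of its own, so a difference between the inputs and one between the genotypes cannot be told apart. With a typical SE of 0.65, a difference between groups of the size of that median was not detectable in a single domain.

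In 6 domains (0.886%) every K library lay above every C library, against 0.18% of all regions, and in no domain did every K library lie below, against 0.0315%. A region can count only if all 4 libraries of the higher group have a peak. Of the shorter regions, 46.4% had a peak in only 2 libraries and could not count, so the shares are not a like comparison. The 6 were the domains over Sox14, Mab21l1 and Sntb2, one in the body of Fgfr2 and 2 without a protein-coding gene on chromosomes 16 and 17. The Sox14 domain of 24.1 kb read 6.49, 6.33, 5.13 and 5.79 in C1 to C4, and 7.99, 8.08, 6.73 and 10.7 in K1 to K4. Sox14 encodes a transcription factor of ventral interneurons of the brainstem, diencephalon and spinal cord. In the Mab21l1 domain, the Sntb2 domain and that on chromosome 17 one control library (C3) had no peak.

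The domain with the smallest p was the 23.4 kb domain over Fcgr3, an Fc receptor gene of myeloid cells, with a K minus C difference of 0.96 (SE 0.41, limma adjusted p of 0.999995, Benjamini-Hochberg). It read 17.1, 7.58, 9.49 and 6.65 in C1 to C4, and 25.6, 10.3, 12.9 and 34.7 in K1 to K4. The groups overlapped, and the highest mutant value was that of K4. On the relative pileup the difference was 0.0062. The next 4 upward differences lay over the body of Mroh2a (1.45), over 2 domains on chromosomes 17 (1.166, and 0.277 on the relative pileup) and 11 (1.302, in the body of Sfi1), and over Fam90a1b and Apoo on chromosome X (1.296). In the Mroh2a and Sfi1 domains no control library and 3 of 4 mutant libraries had a peak. The 5 downward differences with the smallest p were -1.15, -1.04, -1.02 (body of Casz1), -0.98 and -0.81 (another domain in the body of Fgfr2), and none of these 5 domains held a protein-coding start. In each of them 1 or 2 mutant libraries had no peak.

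Most domains over patterning genes had K above C, as most domains did. The median K minus C difference was 0.31 over the 5 Hox domains, 0.29 over the Pax domains, 0.23 over the NK domains and 0.10 over the LIM domains, against 0.17 over all domains. All 5 Hox domains, 12 of 12 NK and 11 of 11 LIM domains had K above C, as did 6 of 8 Sox, 13 of 16 bHLH, 13 of 15 forkhead, 7 of 8 Pax and 37 of 41 other homeobox domains, beside 79.2% of all domains. The SE of a single domain ran from 0.45 to 0.58 over the Hox, Nkx2-1 and Pax3 domains, and none passed the limma test.

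The RNA of the domain genes was compared next. In the untreated mutants, 236 of the 507 listed domain genes had enough counts to be tested, and none passed an adjusted p of 0.05 in edgeR's quasi-likelihood test in either direction (background 0.00634% higher and 0% lower of 15770 genes). Unadjusted, p was under 0.01 for 12 that were higher (5.09%) and 7 that were lower (2.97%), against 2.66% and 2.8% of all tested genes. DESeq2 called 14 higher and 6 lower of 243 domain genes at an adjusted p of 0.05 (5.76% and 2.47%), against 1.59% and 1.78% of all genes to which it gave an adjusted p. Another 64 of the domain genes had no count in any untreated library.

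Without the library labelled dcKO replicate 2, which leaves 2 mutants against 4 controls, 52 of 250 tested domain genes rose (20.8%, against 5.57% of all 16024 genes) and 20 fell (8.0%, against 6.88%). Of 2633 tested genes that start in shorter regions, 221 rose (8.39%) and 360 fell (13.7%). Since a gene has to be transcribed in at least one group to be tested, the 250 are not a sample of all domain genes, and 14 of them were tested only in this fit. Some, such as Shox2, reached the count minimum only through the mutants and could come out only as higher. The share that rose is therefore a description. The p-values measure the spread between these samples only.

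The largest difference was that of Shox2, a homeobox gene of limb, heart and diencephalon that starts in a 24.5 kb domain. Its counts were 0 in all 4 controls, then 21 in dcKO replicate 2, 292 in replicate 3 and 206 in replicate 4. That corresponds to 1.75, 11.1 and 8.29 CPM, and without replicate 2 to a level at least 320-fold higher than 3 counts over the 4 controls. The edgeR adjusted p (Benjamini-Hochberg) was 0.142 with all libraries and 1.48e-05 without replicate 2, and it had enough counts to be tested only through the mutants. Its promoter with 11 CpG is among those printed above. Rsrc1, an RNA-processing gene, starts in the same domain on the opposite strand at 43.6 to 52.2 CPM in controls and 68.9 and 65.4 CPM in mutant replicates 3 and 4. The library kit did not mark strand, so reads where the genes overlap cannot be assigned to one of them by strand.

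Other patterning genes went from near silence to a low level. Pou4f1, a POU factor of sensory neurons and habenula, gave 2, 5, 3 and 9 counts in the controls, 5 in dcKO replicate 2, and 65 and 72 in replicates 3 and 4. Ptf1a, a bHLH gene of pancreas and cerebellum, had no count in the controls or dcKO replicate 2, and a level at least 15.4-fold above 3 counts over the controls in the other two mutants. In both genes dcKO replicate 2 lay near the controls and replicates 3 and 4 lay far above them. The edgeR adjusted p of Pou4f1 (Benjamini-Hochberg) was 0.107 with all libraries and 0.000226 without replicate 2. At no more than 0.405 CPM in the controls, Pou4f1 had enough counts to be tested only through the mutants. Ptf1a was not tested with all libraries, and without replicate 2 it reached the count minimum only through the mutants, so its counts are given as a description.

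Other genes rose too once replicate 2 was left out. Tfap2c, an AP-2 factor, read 12.7, 14.3, 19.9 and 13.01 CPM in the controls and 25.96, 46.0 and 50.4 CPM in the mutants, so that the groups did not overlap. Its log2 difference was 1.45 (SE 0.24, edgeR adjusted p 0.0964, Benjamini-Hochberg) with all libraries and 1.68 (SE 0.16, adjusted p 0.000193) without replicate 2. Tfap2e, another AP-2 gene, differed by 3.34 and Kirrel2, a cell adhesion gene, by 3.49 with all libraries, at adjusted p-values of 0.0829 and 0.122. At no more than 0.252 CPM (Tfap2e) and 0.531 CPM (Kirrel2) in the controls, these 2 genes had enough counts to be tested only through the mutants. Nxph4, a neurexin ligand, differed by 1.32, Otx1, a homeobox gene of forebrain and midbrain, by 0.48, and Pax6, a factor of radial glia, by 0.45. Zic5 at 0.46 and Rsrc1 at 0.38 complete the 10 genes with the smallest p among those higher. Without replicate 2 these 7 genes differed by 0.47 (Rsrc1) to 3.92 (Kirrel2) and passed an adjusted p of 0.05 in edgeR. For Tfap2e and Kirrel2 that result is a description only.

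The 7 domain genes on the lower side with an unadjusted p under 0.01 were Plec, a cytolinker (-0.68), Vgf, a neuropeptide precursor (-0.63), Rap1gap2 (-0.49), Flt1, a VEGF receptor of endothelium (-0.48), Slc17a7, the vesicular glutamate transporter 1 (-0.40), Nfic (-0.34) and Gabbr2, a GABA-B receptor subunit (-0.31). Plec read 24.4, 27.9, 21.8 and 25.4 CPM in the controls and 13.7, 17.2 and 15.5 CPM in the mutants. Here all 3 mutants, dcKO replicate 2 included, lay below the controls. Slc17a7 read 76.3, 74.9, 70.8 and 82.5 CPM in the controls and 61.8, 54.7 and 56.97 CPM in the mutants. None of the 7 passed an adjusted p of 0.05 with all libraries, and without replicate 2 Gabbr2 was the one that did not.

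Several genes of cortical neurons and progenitors in wide domains fell in replicates 3 and 4 once replicate 2 was left out. Fezf2 read 117, 114, 138 and 102 CPM in the controls, 156 in dcKO replicate 2, and 56.0 and 59.1 in replicates 3 and 4. Eomes read 95.0, 114, 150 and 96.0 CPM, then 175, 52.8 and 66.8. Without replicate 2 the log2 differences were -1.04 (SE 0.11) for Fezf2 and -0.93 (SE 0.21) for Eomes, with edgeR adjusted p-values of 0.000283 and 0.0318 (Benjamini-Hochberg). With all libraries they were -0.40 and -0.23 and neither passed.

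Of the 12 domain genes on the cortical list, 4 fell without replicate 2, among them Fezf2, Eomes and Emx2, and 2 rose (Pax6 and Sox2). Neurod2, the highest of all domain genes, read 371 ± 46.3 CPM (SD, n = 4) in controls and 365 ± 50.9 CPM (n = 3) in mutants, a log2 difference of -0.02 (SE 0.11) that did not pass. The sum of the cortex markers Emx1, Neurod6 and Tbr1 moved alongside, at 1003 to 1362 CPM in controls, 620.3 and 749.6 CPM in replicates 3 and 4, and 1421 CPM in replicate 2. Tested singly without replicate 2, only 1 of these 3 markers passed as lower. Emx1 is itself a domain gene.

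Several genes of the ventral forebrain in wide domains rose once replicate 2 was left out. Dlx1, which shares a 32.0 kb domain with Dlx2, read 219, 209, 192 and 180 CPM in the controls and 266 and 252 CPM in mutant replicates 3 and 4, and 159 in replicate 2. Without replicate 2 the log2 difference was 0.37 for Dlx1, 0.46 for Dlx2, 0.78 for Dlx5, 0.30 for Lhx6, 0.87 for Gsx2 and 2.37 for Gsx1, each past an adjusted p of 0.05 in edgeR (Benjamini-Hochberg). With all libraries none of these passed. Gad2, which makes GABA, did not pass without replicate 2 either (0.27, SE 0.11, edgeR adjusted p 0.136, Benjamini-Hochberg). Nor did Nkx2-1 of the ventral telencephalon, which did not rise. It read 2.99 ± 0.51 CPM (SD, n = 4) in controls, 2.26 to 3.16 CPM in mutant replicates 3 and 4, and 1.09 CPM in replicate 2. The interneuron list (Dlx1, Dlx2, Dlx5, Gad2 and Lhx6), which does not hold Gsx1 and Gsx2, consists of domain genes throughout. Its sum was 431 to 490 CPM in controls, 565 and 616 CPM in replicates 3 and 4 and 373 CPM in replicate 2, so more interneurons and more RNA per interneuron cannot be told apart.

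**Figure D5:**
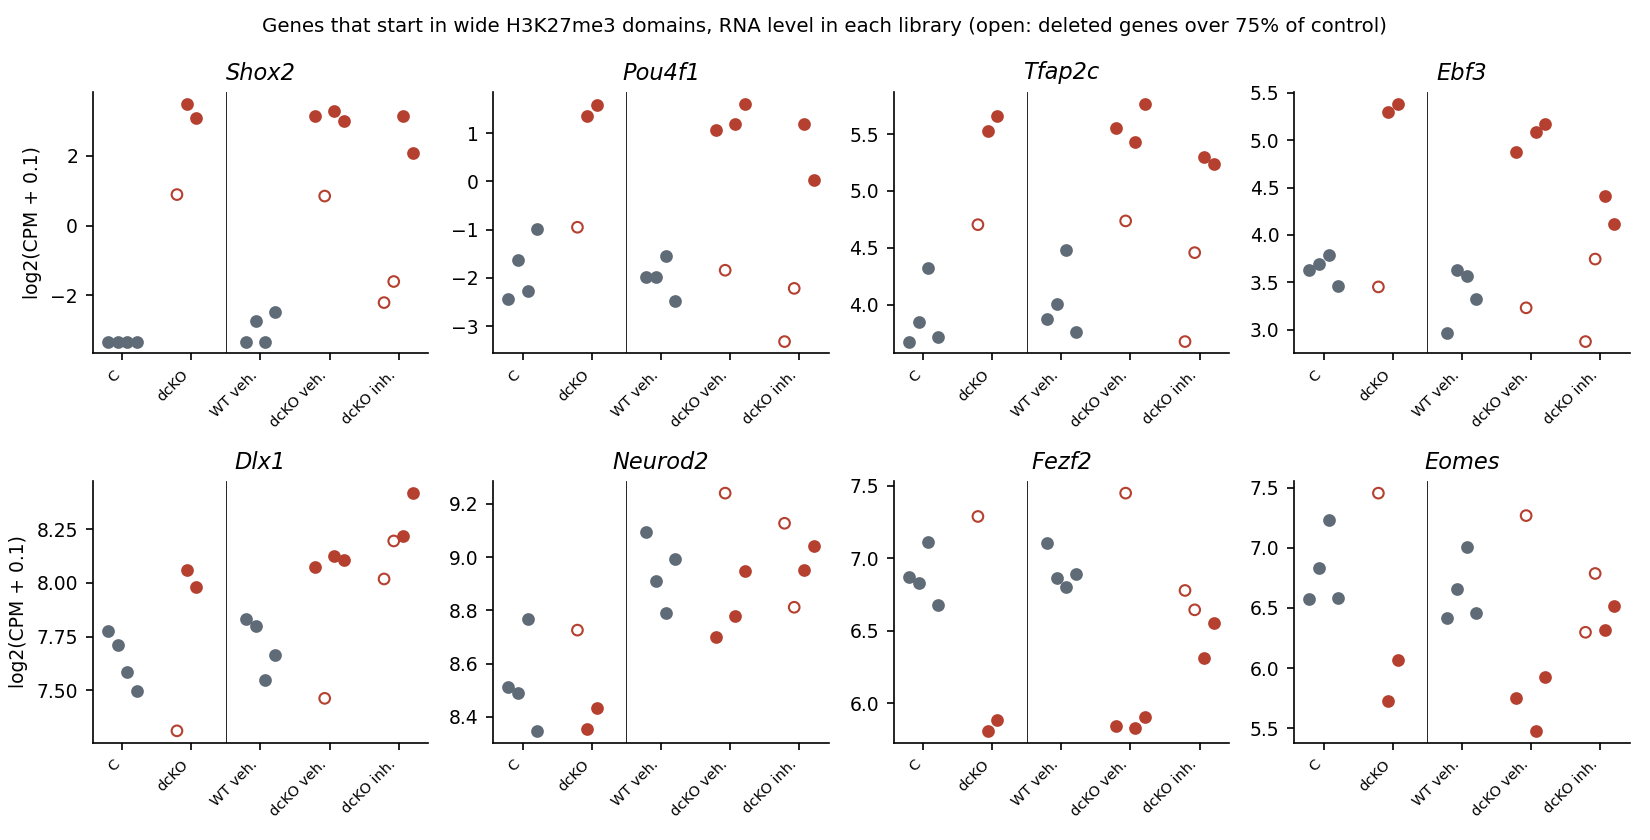
RNA level as log2(CPM + 0.1) of 8 genes that start in wide domains in each of 19 libraries: controls (C) and mutants (dcKO) of the untreated table left of the line, then WT vehicle and the dcKO libraries with vehicle or inhibitor right of it. The genes were partly chosen after their values were seen. Open points are libraries with both deleted genes at over 75% of the control mean, and in the untreated table the open point lies apart from the filled mutant points, for Shox2 at 1.75 CPM against 8.29 and 11.1 CPM and for Fezf2 at 156 CPM against 56.0 and 59.1 CPM.

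With all libraries no gene of any list passed. Without replicate 2, when 5.57% of all genes rose and 6.88% fell, those that rose included 8 of 17 tested genes among the other homeobox genes, 3 of 4 tested Dlx genes, 3 of 9 bHLH genes, 2 of 7 LIM genes, 1 of 5 Wnt ligands (Wnt3), 1 of 7 Sox genes and the 1 tested Pax gene (Pax6). The tested genes include some that reached the count minimum only through the mutants, such as Shox2 (other homeobox) and Ptf1a (bHLH). Those could come out only as higher, so these counts are a description. No forkhead gene of 7, no NK gene of 3, no FGF or hedgehog ligand of 2 and none of the single tested genes of the GATA, BMP and Irx lists passed. One T-box gene (Eomes) and 1 other homeobox gene (Emx2) fell. Of the 52 genes that rose, 19 were on a list of patterning genes, 23 had a control level under 1 per kb and 11 under 0.1. The 20 that fell were more highly transcribed, with a median control level of 10.99 per kb against 1.42. Those that rose differed by 1.69-fold at the median and those that fell by 1.46-fold.

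The H3K27me3 values of the domains of these genes are given as a description, and no difference between the sets of domains was tested. The median K minus C difference was 0.20 over the domains of the genes that rose and 0.26 over those of the genes that fell, against 0.17 over all domains. K lay below C in 9 of the 49 domains of genes that rose and 2 of the 20 of genes that fell, beside 141 of all 677. The Shox2 domain read 13.2, 6.80, 5.19 and 5.61 in C1 to C4, and 15.4, 5.56, 5.88 and 13.1 in K1 to K4. The groups overlapped there, with a difference of 0.34, and in the Fezf2 domain given above, with a difference of 0.16.

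Other markers that moved in the same libraries are given here as measured values, and their part in these results was not tested. The spermatid transcripts Prm1, Prm2, Tnp1 and Tnp2 summed to 0.042 to 0.177 CPM in controls, 26.1 and 29.3 CPM in mutant replicates 3 and 4 and 2.59 CPM in replicate 2, and none of them is a domain gene. In dcKO vehicle they summed to 28.2 to 30.9 CPM in replicates 1, 3 and 4 and 2.55 CPM in replicate 2, against 0.153 to 0.323 CPM in WT vehicle. The choroid plexus list summed to 5.15 to 129 CPM over the controls and 4.42 to 8.61 CPM over the mutants, the meninges list to 12.3 to 67.1 and 12.7 to 26.1 CPM. Microglia markers summed to 44.5 to 51.8 CPM in controls and 47.0 and 52.7 CPM in replicates 3 and 4, endothelium and pericyte markers to 238 to 277 and 209 and 233 CPM, and Cajal-Retzius markers to 586 to 662 and 652 and 676 CPM. Without replicate 2, 1 of 5 microglia markers rose and 1 of 5 endothelium markers (Flt1) fell, and no choroid plexus, meninges or Cajal-Retzius marker passed. Lhx1 and Lhx5 of the Cajal-Retzius list are domain genes. Fezf1, a domain gene of olfactory and hypothalamic development, read 5.43 to 8.67 CPM in controls, 10.5 and 9.74 CPM in replicates 3 and 4, and 0.083 CPM in replicate 2.

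The vehicle-treated mutants gave a second comparison. With all libraries, 253 domain genes were tested and none passed in edgeR in either direction (background 0.00611% higher and 0% lower of 16372 genes). Unadjusted, p was under 0.01 for 21 on the higher and 7 on the lower side (8.3% and 2.77%, against 1.56% and 1.29%). DESeq2 called 12 higher and 1 lower of 319 (3.76% and 0.313%, against 0.444% and 0.18% of all genes). Without the libraries at over 75% of control, 35 of 265 rose (13.2%, against 2.47%) and 11 fell (4.15%, against 3.34%). Here too some genes reached the count minimum only through the mutants, so the share that rose is a description.

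Of these 46 genes, 37 also passed in the untreated comparison in the same direction, which is 80.4% of them and 51.4% of the 72 called there. The tables were not independent. Across 11434 genes, the deviation of a library from its group mean was most like that of the library with the same number in the other table for 6 of 7 libraries, with a correlation of up to 0.917 for the libraries labelled replicate 2 of the mutants. Whether the same embryos were sequenced in both tables is not given in the sources used here. The second comparison is therefore no separate support for the first.

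Shox2 read 0, 1, 0 and 2 counts in WT vehicle and 191, 38, 219 and 169 in dcKO vehicle, where 38 was that of replicate 2. Eomes read 85.1 to 129 CPM in WT vehicle, 53.7, 44.5 and 60.8 CPM in dcKO vehicle replicates 1, 3 and 4, and 154 CPM in replicate 2. Isl2, a LIM gene of motor neurons, and Pax5, a midbrain-hindbrain gene, had too few counts to be tested in the untreated mutants and reached the minimum here through the mutants, so their values are a description. They were at 1.09, 0.83 and 0.80 CPM for Isl2 and at 0.59, 0.61 and 0.51 CPM for Pax5 in dcKO vehicle replicates 1, 3 and 4, from 3 to 24 counts in any dcKO vehicle library and 0 to 2 in WT vehicle.

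The Wnt inhibitor was compared with vehicle in the mutants, in the same fit and with the same dcKO vehicle libraries as the comparison above. With all libraries no domain gene passed in edgeR, against 0.0428% of all genes higher and 0.0122% lower. Unadjusted, p was under 0.01 for 16 on the higher and 3 on the lower side (6.32% and 1.19%, against 2.44% and 2.2%). DESeq2 called 10 higher and 1 lower of 274 (3.65% and 0.365%, against 1.1% and 0.909% of all genes).

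Without the libraries at over 75% of control, which leaves 2 inhibitor and 3 vehicle mutants, 2 of 265 domain genes rose (0.755%, against 0.303%) and 7 fell (2.64%, against 0.72%). Inhibitor replicate 4, which was kept, held Smarcc1 at 65.6% and Smarcc2 at 80.6% of the control mean. The 3 vehicle mutants held them at 50.2% to 52.2% and 58.3% to 60.8%, and the part of this unlike deletion in the differences was not tested. The 2 that rose were Ebf1 (log2 difference 1.23) and Fezf2 (0.58, SE 0.12, edgeR adjusted p 0.0472 with Benjamini-Hochberg adjustment). With all libraries the differences were 1.502 and 0.15, and neither passed. Fezf2 read 79.4 and 93.7 CPM in inhibitor replicates 3 and 4, 57.4, 56.8 and 59.8 CPM in vehicle replicates 1, 3 and 4, and 111 to 138 CPM in WT vehicle. The 7 that fell were Fezf1, Ebf2, Barhl2, Mab21l1, Dlgap2, Vwc2 and Hrk. Mab21l1, a gene of eye and limb development, read 2.72 and 3.003 CPM with the inhibitor and 7.75, 7.98 and 8.65 CPM with vehicle, a difference of -1.496, and of -0.80 with all libraries, which did not pass.

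Shox2 varied widely among the inhibitor libraries, at 179 and 104 counts in inhibitor replicates 3 and 4 and 2 and 4 counts in the libraries labelled replicates 1 and 2, in which Smarcc1 was at 78.9% and 94.9% of control. Its log2 difference was -0.44 (SE 0.30) without the libraries at over 75% and -1.04 (SE 0.79) with all, and it passed in neither. Nkx2-1, in the longest domain with a single protein-coding start, read 8.005, 22.9, 4.42 and 9.85 CPM with the inhibitor against 3.69, 1.70, 3.79 and 2.67 CPM with vehicle, a difference of 1.93 (SE 0.40) at an edgeR adjusted p of 0.13 (Benjamini-Hochberg). Without the libraries at over 75% it was 1.09 (SE 0.29) at an edgeR adjusted p of 0.0983, which did not pass either. Every inhibitor library lay above every vehicle library for this gene. The choroid plexus list ran from 5.77 to 819 CPM over the inhibitor libraries and from 5.28 to 8.46 CPM over vehicle, and its part in these values was not tested.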

How the data were processed

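H3K27me3 ChIP-seq and RNA-seq libraries were grouped by the letters and names in their titles. The authors aligned reads to mm10 with STAR and called broad peaks with MACS2 (version 2.1.0.20140616 per the file headers) for each library against the pooled input of its group, which was taken as 1 library per group, keeping 1 duplicate tag. The deposited peak lists give fold enrichment over input as a ratio, pileup as a signal, and −log10 of the p-value and of the q-value. Each value is a mean over the peak. The authors counted RNA reads per gene with featureCounts, and the deposited RNA tables hold these counts, not normalized.

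Peaks were joined across libraries as the report states, and a library without a peak in a region was given a fold enrichment of 1. The study compared reads with DiffBind, which peak lists do not allow, so log2 of the highest fold enrichment was fitted over all 22220 regions with limma 3.58.1. RNA counts were tested with edgeR 4.0.16 (TMM, filterByExpr, quasi-likelihood) over all genes, with DESeq2 1.42.0 as an alternative, and p-values were Benjamini-Hochberg adjusted over all regions or genes tested. Levels per kb are CPM divided by the exon length of the GENCODE annotation of GRCm38. A domain gene is a protein-coding gene whose start lies in a wide domain, and a start in a region of any other length was counted as one in a shorter region. Both fits were tested on simulated data with known changes. Sequences are from RefSeq (GRCm38.p6), read with pysam 0.24.0 and samtools 1.23.1.

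The members, gene lists, markers and alternatives were chosen with earlier results of these data known. Named domains are the 10 longest and the 5 with the smallest p in each direction. Named genes are, per RNA comparison and direction, up to 10 domain genes with the smallest p past an adjusted p of 0.05 (untreated: unadjusted 0.01) and a mean count of at least 10, the 10 with the highest control level, and members of the lists. The treated comparisons gave none by that rule. Genes named from fits without the libraries at over 75% of control, the domains whose groups did not overlap, Hox count sums and Fezf1 were chosen after their values were seen, as were those fits themselves. Within a table, same-numbered samples of the compared groups did not all deviate together (correlations from -0.32 to 0.58 for H3K27me3 and from -0.31 to 0.38 for RNA), so numbers were not used as pairs. Some genes of the lists are not reported here. Alternatives covered the length limit, the q-value, the overlap, the value read from a peak, normalization, the filter and each library in turn.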

Additional observations from a re-analysis of the deposited data

Results flagged for a closer look

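In 13 of 156 groups of 4 libraries looked at, 1 library lay far from the others. Chance alone marks about 1 group in 20. Among the H3K27me3 controls, C1 had a median fold enrichment of 8.02 over the domains, against 4.74 to 5.26 in the others. It was also far out in the Dmbx1 domain (11.1 against 5.47 to 6.03) and in a domain in the body of Fgfr2 (7.49 against 4.54 to 4.80), and C3 in a domain in the body of Casz1 (5.83 against 3.53 to 3.82).

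The library labelled dcKO vehicle replicate 2 accounted for 7 of the 13. It held Smarcc1 at 243.5 CPM (others 133.2 to 138.6) and Smarcc2 at 694.6 CPM (425.2 to 443.7). Of the domain genes, it held Fezf2 at 174.7 CPM (56.8 to 59.8), Eomes at 154 CPM (44.5 to 60.8), Dlx1 at 176.3 CPM (269.5 to 278.7), Nxph4 at 18.6 CPM (42.0 to 46.0) and Nfic at 52.5 CPM (36.6 to 36.8). In the same group Otx1 stood at 39.7 CPM in replicate 3 (37.0 to 37.3). With the Wnt inhibitor, Nfic stood at 32.2 CPM in replicate 3 (43.8 to 46.1).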

How the results depend on the processing

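The number of domains was 2244 at a limit of 5000 bp and 220 at 20000 bp, and 515 to 676 with 1 library left out (515 without K4). No domain was called in K against C with any library left out, and the median difference ran from 0.06 to 0.33. With only the libraries over 30% of tags kept, a choice made after seeing the data, 1 domain was called (over Gm36079 and Gm21188, difference 1.14), beside 15 regions (0.0675%). Among the named domains, differences turned sign with the mean enrichment over all bases (-0.0074 for Fam90a1b and Apoo, 0.20 for Casz1) and in the libraries over 30% (0.24 on chromosome 11, 0.086 on chromosome 7 and 0.066 for Fgfr2). The cause was not tested.

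In the untreated mutants the calls at an adjusted p of 0.05 were 6 higher and 5 lower without the filter on low counts, beside 0.338% and 0.253% of all genes, and 14 and 6 with DESeq2 (1.59% and 1.78%). At an unadjusted p of 0.01 they were 30 and 12 without the filter (6.77% and 2.71%, against 2.003% and 2.25% of all genes), and 23 and 12 with DESeq2 (5.19% and 2.71%, against 1.99% and 2.41%). They were 16 and 12 with genes whose body overlaps a domain, and 6 and 1 in domains of 20000 bp or more. Both read the main fit, where 2.66% and 2.8% of all genes passed that p. How many genes of these sets were tested is not given here, so their shares cannot be compared with it. With the replicate block 6 were higher and 6 lower at that p (2.54% each, against 0.831% and 0.919%). At an adjusted p of 0.05 the block called no domain gene in any RNA comparison and no domain in K against C. Of all genes it called 0% for untreated, 0.02443% higher and 0.006108% lower for vehicle, and 0.03665% and 0.006108% for the inhibitor. Without the library labelled dcKO replicate 2 the untreated calls among domain genes were 52 and 20 (adjusted) and 57 and 22 (unadjusted). The unadjusted ones were 22.8% and 8.8% of the tested domain genes, against 6.58% and 8.06% of all genes. Leaving out single libraries, the adjusted counts ran from 0 to 52 higher and 0 to 20 lower, the unadjusted from 4 to 57 and 5 to 22. For vehicle the counts were 12 and 1 with DESeq2 (background 0.444% and 0.18%) and 35 and 11 without the libraries at over 75%, and ran from 0 to 21 and 0 to 10 with each left out. For the Wnt inhibitor they were 1 higher without the filter (0.214%, against 0.0479%), 10 and 1 with DESeq2 (background 1.1% and 0.909%), and 2 and 7 without the libraries at over 75%, and ran from 0 to 5 and 0 to 4. All 200 alternative values of the 17 named genes kept their sign, and 167 stayed under an unadjusted p of 0.01.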

Other observations

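Domains that consist mostly of repeats form a small group of their own. Soft-masked repeats made up at least 50% of the bases of 9 domains, 8 of which held no protein-coding start. The longest, 87.6 kb on chromosome 8, was covered over at least 99.7% of its length in every library, those under 30% of tags kept included, with a fold enrichment from 5.35 to 28.2. A 19.7 kb domain on chromosome 9 within Ulk4 was 98.0% repeats, and another on chromosome 9, of 38.6 kb and 95.8% repeats, held 9 predicted genes. Reads in such regions can map to many copies, so their values are uncertain. The 37 domains on chromosome X included 4 of the 9, and 2 further domains lay on sequence not placed on a chromosome. No domain lay on chromosome Y, beside 190 shorter regions.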
